A study of Mus musculus with 9 samples.

Results

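The early, induction phase of brain inflammation was examined 1 d after lipopolysaccharide (LPS), the cell wall endotoxin of Gram-negative bacteria, had been injected into the striatum of adult mice. All mice were male C57Bl/6J animals of 10 to 12 weeks. The LPS 1 d group had 3 arrays and was set against 3 arrays from mice that had received phosphate-buffered saline (PBS) and recovered for 4 d, so 6 of the 9 arrays of the series entered the comparison. The remaining 3 arrays, from mice taken 4 d after LPS, did not enter the differences themselves. They helped to estimate the spread between arrays, to choose the probe set of each gene and to set the background level. They also served for 1 later comparison. Each array held RNA pooled from 3 mice, taken from a block of the injected hemisphere around the injection site after the circulation had been flushed with saline. There was no PBS group at 1 d, so LPS and 3 d less recovery from surgery cannot be told apart in any value given here. "Rose" and "fell" mean higher or lower in the LPS 1 d arrays than in the PBS arrays.

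LPS is sensed by Toll-like receptor 4 together with the coreceptors CD14 and MD-2, on microglia, border macrophages and blood-derived myeloid cells in the brain. One arm of the response, through MyD88, releases the transcription factor NF-kB and switches on cytokines, chemokines and the inhibitors that later shut the pathway down. The other arm, through TRIF, leads to type I interferon, which acts through STAT and IRF proteins on a large set of antiviral genes. Cytokines from these cells act in turn on astrocytes, endothelial cells and oligodendrocytes, and blood neutrophils and monocytes enter the tissue.

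The change at 1 d was mostly upward. Of 17097 genes measured by a probe set of their own, 660 (3.86%) rose and 91 (0.532%) fell at an adjusted p below 0.05 and a fold change of at least 1.5 by limma, a linear model with moderated variances. Counted over all 45037 probe sets, 1064 (2.36%) were higher and 198 (0.44%) lower. Risen genes changed by a median of 2.69-fold, and 462 of them by at least 2-fold, 223 by at least 4-fold and 44 by at least 16-fold. Fallen genes moved less, with a median of 1.75-fold, 20 at 2-fold or more and 2 at 4-fold or more. None of the 660 and 91 genes had overlapping arrays in the 2 groups. Of the risen genes 253 had more than 1 probe set, and in 88 of these every probe set was called. The same held for 10 of 34 fallen genes. No called gene had another probe set called in the opposite direction. Ptx3, Ms4a6c, Osmr, Tnfrsf1b, Cdh5 and Fkbp5, for example, each had 1 probe set called. Their lowest probe sets stood at 0.10, −0.19, 0.10, 0.03, 0.10 and −0.12. Over all genes, whether called or not, the 3 LPS arrays lay above the 3 PBS arrays for 1964 genes (11.5%) and below them for 2393 (14%), and the median difference was −0.03 on the log2 scale.

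**Figure D1:**
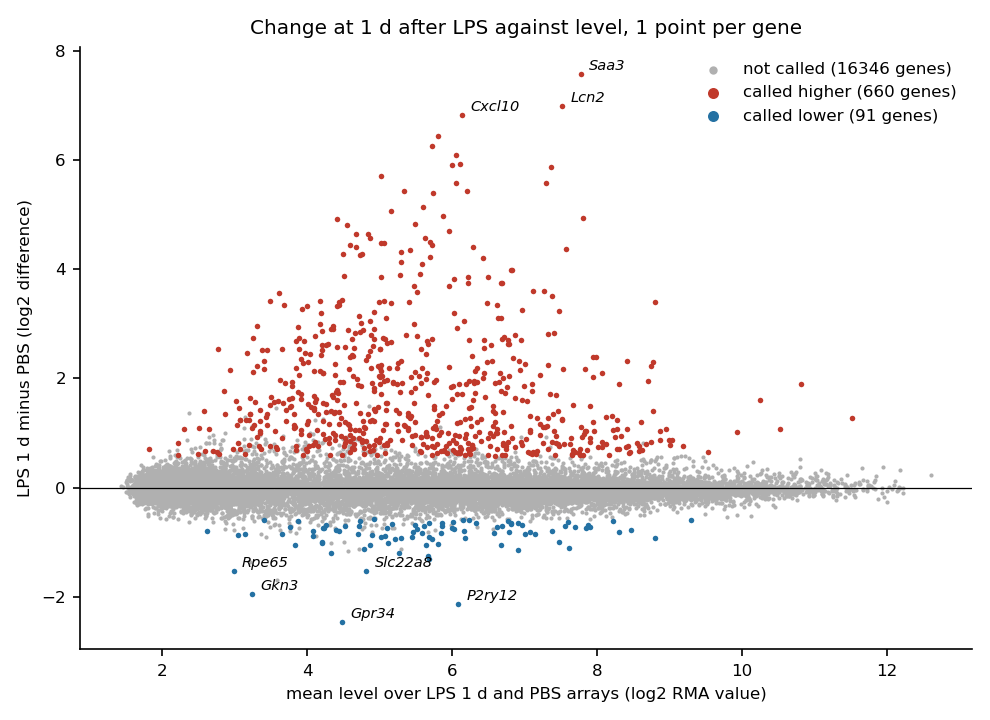
Difference between LPS 1 d and PBS in log2 units (vertical) against the mean log2 RMA value over both groups (horizontal), 1 point for each of 17097 genes. The 660 genes called higher (red) reach much larger differences than the 91 called lower (blue), and most genes lie near 0.

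Array medians lay between 4.32 and 4.37, and arrays of 1 group correlated with each other at 0.992 to 0.994 over all probe sets, against 0.981 to 0.985 between LPS 1 d and PBS arrays. The difference between 3′ and 5′ control probes for Gapdh, a measure of RNA integrity, was 0.335 to 0.445 in the LPS 1 d arrays and 0.313 to 0.412 in the PBS arrays. The same measure for the transferrin receptor was −0.864 to −0.502 in the LPS 1 d arrays and −0.620 to −0.406 in the PBS arrays. For pyruvate carboxylase, a further control, LPS 1 d replicate 2 was the lowest of all arrays at 3.55, and the other 8 lay between 3.90 and 4.17. In bulk tissue, fewer cells of a type and less RNA per cell cannot be told apart, and the same holds for more cells and more RNA. The PBS level was at or below 3.49, the highest mean among nonspecific control probe sets, for 193 of the 660 risen genes. In 16 of these 193 the LPS 1 d level was also at background. For the other 177 the fitted rise is not a measured size, and a lower bound was set by putting the background level in place of lower values. This bound was 1.5-fold or more in 148 of them.

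The 15 genes with the largest rises were ordered by the fitted log2 difference, which is not a measured size where the PBS level was at background. Saa3, a serum amyloid A acute-phase protein, read 4.89, 3.85 and 3.22 in the PBS arrays and 11.46, 11.70 and 11.53 in the LPS 1 d arrays. It led the order with a rise of 7.58 ± 0.36 (SE) on the log2 scale (adjusted p = 7.85e-06), and its LPS values were close together while its PBS values were not. Lcn2, lipocalin 2, which binds bacterial siderophores, stood at 3.71, 2.76 and 5.61 after PBS and 10.67, 11.34 and 11.04 after LPS, a rise of 6.99 ± 0.61 (adjusted p = 0.000174). The groups did not overlap, although PBS replicate 3 was far above PBS replicate 2. Slfn4, a Schlafen gene induced by interferon in myeloid cells, read 2.91, 2.46 and 2.42 against 8.24, 9.33 and 8.99. Its PBS arrays were all below background, so its rise was at least 41.2-fold (adjusted p = 6.62e-06). Timp1, an inhibitor of matrix metalloproteinases, and Ptx3, a soluble pattern recognition protein, rose at least 48.6-fold and 48.0-fold. Acod1, which makes itaconate in activated macrophages, rose at least 40.7-fold, and Mmp3, stromelysin 1, at least 23.6-fold. The chemokines and the calprotectin genes among the 15 are described with their groups.

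**Figure D2:**
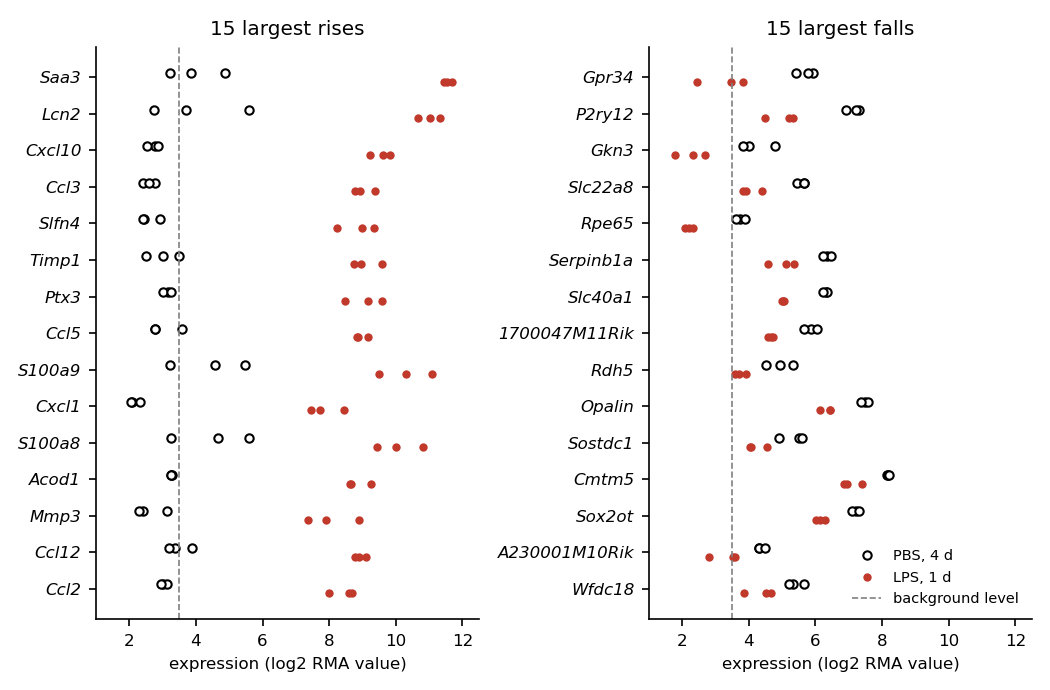
Log2 RMA values of the 15 genes with the largest rises (left) and the 15 with the largest falls (right), 1 point per array, PBS 4 d as open circles and LPS 1 d as red points, with the background level of 3.49 as a dashed line. Both sets were chosen among called genes without overlap between the groups. The PBS values of Saa3, Lcn2, S100a8 and S100a9 are the most widely spread among the rises.

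Some genes of the LPS sensing machinery rose. Of 18 measured genes of Toll-like receptor signalling 8 rose and none fell, with a median log2 difference of 0.68. Cd14, which hands LPS to its receptor, read 4.50, 4.66 and 4.53 after PBS and 8.07, 8.89 and 8.31 after LPS, a rise of 3.86 ± 0.21 (adjusted p = 1.5e-05). Ly96, which codes for MD-2 and was picked after its values were seen, read 3.05, 3.60 and 2.97 against 3.59, 3.83 and 4.23 (adjusted p = 0.137), so the groups overlapped. Tlr2, the receptor for bacterial lipopeptides, rose by at least 11.7-fold and its partner Tlr1 by at least 4.95-fold. Lbp, the plasma protein that delivers LPS to CD14, rose by 1.93 ± 0.16. Tlr4, the LPS receptor, moved far less, from 3.01, 3.00 and 3.04 to 3.37, 3.89 and 3.89 (adjusted p = 0.0192), from below background to just above it. That call was lost without LPS 1 d replicate 2 or 3 or without any 1 of the PBS arrays, with adjusted p between 0.0634 and 0.0791.

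In the list of NF-kB subunits, the IkB proteins that bind them and IkB kinases, 7 of 12 genes rose and none fell (median 1.16). Nfkbia, which codes for IkB alpha and is itself a target of NF-kB, read 7.06, 7.19 and 6.80 in the PBS arrays and 8.83, 9.39 and 9.15 in the LPS 1 d arrays (log2 difference 2.11 ± 0.18, adjusted p = 0.000169). Nfkbiz rose by 2.70 ± 0.22, Ikbke, a kinase that also activates IRF proteins, by 2.65 ± 0.29, and Bcl3 by at least 4.78-fold. The subunit genes Relb and Nfkb2, given to complete the list after their values were seen, rose by 1.17 ± 0.15 and 1.15 ± 0.09. Rela, the p65 subunit, passed the test but not the fold threshold, at 0.49 ± 0.09 (adjusted p = 0.017). In the list of feedback inhibitors, which also counts Nfkbia, 8 of 14 genes were higher (median 1.09). Socs3, which blocks signalling from the IL-6 receptor, went from 3.87, 3.57 and 3.35 to 7.13, 7.88 and 7.51, a rise of 3.91 ± 0.19 (adjusted p = 8.03e-06). Il1rn, the interleukin 1 receptor antagonist, rose at least 12.6-fold, Irak3 at least 5.23-fold, and Cd274, the checkpoint ligand PD-L1, by 2.74 ± 0.30. Il10 was at background in both groups.

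Promoter sequence was read for genes that stand for the induced groups, since NF-kB and the interferon pathway act on known DNA motifs. RefSeq windows from 250 bases before to 50 after each start site (build GRCm38.p6) were available for 13605 of the 17097 genes. They were searched on both strands for the kB site, for the interferon-stimulated response element (ISRE, GAAANNGAAA) and for the gamma-activated site (GAS, TTCNNNGAA). Matches of different motifs may overlap, and a gene counts once if any of its windows holds the motif. The kB stretches shown are of an inhibitor, 2 chemokines and a cytokine that rose, each given 5′ to 3′ on the strand of the gene with matches to any of the 3 motifs in capitals.
Nfkbia (chr12:55492652-55492691, minus strand): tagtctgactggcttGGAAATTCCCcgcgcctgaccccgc
Cxcl1 (chr5:90891159-90891199, plus strand): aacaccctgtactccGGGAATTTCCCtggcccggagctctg
Il6 (chr5:30013055-30013094, plus strand): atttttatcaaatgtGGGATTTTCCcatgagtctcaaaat
Cxcl10 (chr5:92348968-92349117, minus strand): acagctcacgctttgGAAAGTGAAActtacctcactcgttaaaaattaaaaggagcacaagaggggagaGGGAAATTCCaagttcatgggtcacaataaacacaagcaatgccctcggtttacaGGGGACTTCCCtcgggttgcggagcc
In Cxcl10 the first match is an ISRE and the others are kB matches. A kB match was found in 97 of the 522 risen genes with a window (18.6%), in 12 of the 73 fallen ones (16.4%) and in 11.4% of genes not called. Among the NF-kB and IkB genes, 5 of 9 with a window held one. The share is 9.55% over all 27025 genes with a window, and a match is a string of letters, not evidence of binding.

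Chemokines were among the genes that moved furthest. Of 18 CC chemokines 9 rose and none fell (median 1.37), and of 12 CXC chemokines 8 rose (median 1.94). Ccl2, the main attractant of monocytes, read 3.00, 3.14 and 2.95 in the PBS arrays, below background, and 8.01, 8.69 and 8.59 in the LPS 1 d arrays, at least 30.7-fold higher (adjusted p = 5.11e-06). Ccl12, another monocyte attractant in mice, went from 3.37, 3.21 and 3.90 to 8.77, 8.90 and 9.09, at least 39.2-fold. Ccl3, made by activated microglia and macrophages, rose at least 46.4-fold, and Ccl5, an attractant of T cells and monocytes, at least 42.9-fold. All of these were near or below background after PBS and far above it in each LPS 1 d array.

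The neutrophil-attracting CXC chemokines Cxcl1 and Cxcl2 rose together with the interferon-induced ones. Cxcl1 read 2.08, 2.06 and 2.34 after PBS and 7.46, 8.44 and 7.73 after LPS, at least 20.9-fold higher (adjusted p = 1.73e-05). Cxcl2 read 2.24, 2.04 and 2.13 against 6.34, 7.62 and 6.90, at least 11.0-fold. In both genes LPS 1 d replicate 2 was the highest array. Cxcl10, an interferon-induced attractant of CXCR3-bearing cells, went from 2.77, 2.86 and 2.53 to 9.23, 9.83 and 9.61. It rose at least 66.9-fold (adjusted p = 3.79e-06), with its PBS arrays all below background. Cxcl9, induced by interferon gamma, rose at least 3.76-fold and the B cell attractant Cxcl13 at least 3.18-fold. Among 12 chemokine and formyl peptide receptors 4 rose (median 0.24). Ccr1 rose at least 4.44-fold and Fpr2, a receptor for bacterial peptides, at least 19.8-fold, while Ccr2, the receptor for Ccl2, read 2.97, 3.39 and 3.11 against 3.45, 3.15 and 3.38 (adjusted p = 0.633). The latter is the brightest of its 4 probe sets, and 1 of the others was called higher.

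Several proinflammatory cytokines rose from PBS levels at background. Il1b, a central cytokine of acute brain inflammation, read 2.81, 4.09 and 3.24 after PBS and 7.73, 8.89 and 8.44 after LPS, at least 25.3-fold higher (adjusted p = 6.53e-05). Of the interleukin 1 family 7 of 11 genes rose (median 1.10), the antagonist Il1rn and Il1f9 (interleukin 36 gamma) among them. Il1a, which was above background after PBS, read 3.84, 4.22 and 4.25 against 4.71, 4.94 and 5.58 (0.97 ± 0.22, adjusted p = 0.0485). Its call was lost without any 1 of the 9 arrays other than LPS 1 d replicate 1, at an adjusted p of 0.0593 to 0.156. Il6 went from 1.82, 1.77 and 1.75 to 4.55, 5.68 and 5.38, at least 3.27-fold above background (adjusted p = 5.7e-05). Its family gave 6 risen genes of 11 (median 0.78), with Osmr, the oncostatin M receptor, up by 3.06 ± 0.21 and Stat3, the transcription factor that IL-6 receptors activate, higher too (adjusted p = 0.000345). Tnf read 2.91, 2.91 and 2.36 against 5.19, 5.61 and 5.69, at least 4.02-fold, and 11 of 19 genes of the TNF list rose (median 1.03). The death receptor Fas rose by 2.24 ± 0.20 and the TNF receptor Tnfrsf1b by 2.20 ± 0.22. Csf3, the growth factor of neutrophils, read 3.20, 3.28 and 3.49 against 5.62, 6.91 and 6.14, at least 6.64-fold, and its receptor Csf3r rose by 1.82 ± 0.20. Csf1, the growth factor of microglia and macrophages, rose by 1.06 ± 0.14, and 5 of 8 genes of that list were higher (median 1.27). In each of Il1b, Il6 and Csf3 the highest array was LPS 1 d replicate 2.

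Interferon-stimulated genes rose almost as a block. Of 27 antiviral effectors 25 rose and none fell, with a median log2 difference of 2.36. Ifit1, which binds foreign RNA, read 4.58, 4.20 and 4.10 in the PBS arrays and 7.88, 8.28 and 8.28 in the LPS 1 d arrays, a rise of 3.85 ± 0.15 (adjusted p = 3.79e-06). Rsad2, or viperin, rose by 3.75 ± 0.21 on all 3 of its probe sets, Oasl2 by 4.24 ± 0.27 and Mx1 at least 3.18-fold. Of 10 interferon-inducible GTPases, which attack the vacuoles of intracellular microbes, 9 rose (median 2.73). Gbp2 went from 5.21, 5.50 and 5.43 to 9.43, 10.13 and 9.72, a rise of 4.38 ± 0.17 (adjusted p = 3.79e-06), and Iigp1 rose by 4.22 ± 0.20. In each of Ifit1 and Gbp2 the lowest LPS array was more than 3 log2 units above the highest PBS array.

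The interferon genes themselves were not detected above background. Ifnb1 read 2.02, 2.02 and 1.86 after PBS and 2.31, 2.25 and 2.63 after LPS (adjusted p = 0.105), and Ifng read 1.98, 1.76 and 2.23 against 1.91, 1.80 and 2.05 (adjusted p = 0.867). Of 11 interferon and receptor genes 6 were at background in both groups, and 2 receptor chains rose, Ifnar2 by 0.63 ± 0.09 and Il10rb by 0.85 ± 0.11. The factors that carry the signal rose in 5 of 14 cases (median 0.48). Irf7, which amplifies type I interferon, went from 3.22, 2.89 and 3.30 to 5.58, 6.72 and 6.53, at least 6.90-fold. Irf9, a DNA-binding factor of the type I interferon response, rose by 1.96 ± 0.13 and Irf1, a target of interferon gamma and of NF-kB, by 1.63 ± 0.13.

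The ISRE letters stood in many of these promoters. The stretches shown are of 3 effectors on the strand of the gene, where TTTC runs are the ISRE read on the other strand, and of Irf1, which holds a GAS and then a kB match.
Ifit1 (chr19:34640770-34640828, plus strand): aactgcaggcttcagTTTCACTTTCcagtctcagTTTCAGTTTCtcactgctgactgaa
Rsad2 (chr12:26456548-26456587, minus strand): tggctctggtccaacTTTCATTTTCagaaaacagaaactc
Gbp2 (chr3:142620589-142620628, plus strand): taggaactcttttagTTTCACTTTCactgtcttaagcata
Irf1 (chr11:53769909-53770013, plus strand): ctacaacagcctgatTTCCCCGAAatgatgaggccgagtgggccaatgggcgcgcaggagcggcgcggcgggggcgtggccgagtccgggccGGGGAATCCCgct
An ISRE match was found in 10 of 18 antiviral effectors with a window and in 7 of 8 GTPases. Over all risen genes it was found in 58 of 522 (11.1%), against 4 of 73 fallen genes (5.48%), 3.27% of genes not called and 3.99% of all genes with a window. A GAS match was held by 14.6% of the risen genes, 2 of the 73 fallen genes and 8.56% of genes not called.

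Genes of antigen presentation by MHC class I rose broadly. In this list 13 of 17 genes were higher and none lower (median 1.27). Psmb8, a subunit of the immunoproteasome that cuts peptides for class I, read 4.47, 3.95 and 4.84 in the PBS arrays and 7.28, 7.85 and 7.74 in the LPS 1 d arrays, a rise of 3.20 ± 0.22 (adjusted p = 4.69e-05). Nlrc5, the activator of class I genes, rose at least 4.33-fold, and the heavy chains H2-D1 and H2-K1 rose by 2.32 ± 0.12 and 2.30 ± 0.11. Class I heavy chains are near-identical, so a probe set given to 1 of them may read others. Class II genes moved less, with 3 of 10 higher (median 0.14), 1 of them at 2-fold or more and 0 by ordinary tests. Ifi30, a lysosomal thiol reductase, rose by 2.10 ± 0.21. Cd74, the invariant chain, rose by 0.76 ± 0.15 and H2-Aa by 0.70 ± 0.14. The call of H2-Aa was lost without LPS 1 d replicate 2 or 3 or PBS replicate 1 or 2 (adjusted p 0.0606 to 0.0846), and that of Cd74 without any LPS 1 d array or PBS replicate 1 or 3 (adjusted p 0.0758 to 0.106), which left 1 class II gene called without LPS 1 d replicate 2 or 3 or PBS replicate 1. Ciita, the class II activator, was at background in both groups.

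Markers of blood myeloid cells rose steeply. Of 18 measured neutrophil genes 10 rose and none fell (median 1.38). The count was 6 with low values filtered out and 1 by ordinary tests without moderation. The mean level over the list was 3.27, 3.01 and 3.30 in the PBS arrays and 4.67, 5.43 and 4.84 in the LPS 1 d arrays. S100a8 and S100a9 code for calprotectin, the main cytosolic protein of neutrophils. S100a9 read 5.49, 3.22 and 4.56 after PBS and 9.50, 11.08 and 10.30 after LPS, a rise of 5.87 ± 0.57 (adjusted p = 0.000336). S100a8 behaved alike at 5.59, 3.24 and 4.67 against 9.45, 10.83 and 9.99 (5.59 ± 0.61). PBS replicate 1 was the highest PBS array for both, LPS 1 d replicate 2 the highest LPS array, and the groups did not overlap. Cxcr2, the receptor for Cxcl1 and Cxcl2, read 2.94, 2.87 and 2.89 against 3.44, 5.05 and 4.83 (adjusted p = 0.0431), with LPS 1 d replicate 1 still at background. Its call was lost without any 1 of the 9 arrays other than LPS 1 d replicate 1 (adjusted p 0.0665 to 0.143). The 8 uncalled members include Mpo, Elane, Ltf, Camp and Ngp, granule protein genes that neutrophils transcribe mainly while maturing in the marrow, which were picked here after their values were seen. Their log2 differences lay between −0.19 and 0.19.

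Monocyte and recruited macrophage genes rose in 10 of 13 cases, with a median of 3.40. Plac8 read 2.64, 2.19 and 2.30 in the PBS arrays and 6.77, 6.82 and 6.84 in the LPS 1 d arrays, so that all 3 LPS pools were nearly equal (at least 10.0-fold, adjusted p = 1.92e-06). Chil3, a chitinase-like protein of inflammatory monocytes, went from 3.33, 2.62 and 3.26 to 7.81, 8.32 and 7.60, at least 21.4-fold. Arg1, arginase 1, rose at least 14.1-fold and Ms4a6c at least 21.1-fold. Ccr2, a key gene of this list, was not called and was at background in both groups (adjusted p = 0.633), although 1 of its 4 probe sets was called higher. Border macrophage genes gave no common direction, with 3 of 11 higher, 1 lower and 5 at background in both groups (median 0.08). F13a1 rose by 1.75 ± 0.25 and Stab1 by 1.05 ± 0.16. Mrc1, the mannose receptor, read 4.69, 4.93 and 4.91 against 4.22, 3.66 and 4.25 and fell by 0.80 ± 0.15 on the log2 scale (adjusted p = 0.0208), a call lost without PBS replicate 2 (adjusted p = 0.0848) or 3 (adjusted p = 0.0813). Lyve1 and Cd163 were at background in both groups. No lymphocyte gene was called among 17 T, B and natural killer cell genes, and 15 of them, Cd3e and Ncr1 included, were at background in both groups.

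Some homeostatic microglial genes fell. Of 18 measured, 3 fell and none rose (median −0.30), with 0 by ordinary tests without moderation, and the 3 LPS arrays were below the 3 PBS arrays for 9 of them and above for 1. Gpr34, a lysophospholipid receptor of microglia, read 5.93, 5.78 and 5.40 in the PBS arrays and 3.83, 2.43 and 3.47 in the LPS 1 d arrays. It was at least 4.29-fold lower (adjusted p = 0.00385), and LPS 1 d replicates 2 and 3 were below background. P2ry12, the ADP receptor that guides microglial processes to damage, went from 7.32, 7.21 and 6.93 to 5.33, 4.49 and 5.21 and fell by 2.14 ± 0.25 on the log2 scale (adjusted p = 0.00106). P2ry13, its neighbour in the genome and in function, fell by 0.83 ± 0.11 (adjusted p = 0.00239), from 5.92, 6.06 and 6.03 to 5.02, 5.14 and 5.36. All 3 are G protein-coupled receptors of the P2Y12-like group. Other defining genes of the same cells gave no such difference. Cx3cr1, the fractalkine receptor, read 7.64, 7.56 and 7.62 against 7.96, 7.61 and 7.94, a difference of 0.23 ± 0.11 (adjusted p = 0.371). Tmem119 read 6.12, 6.45 and 6.25 against 6.54, 5.52 and 6.57 (adjusted p = 0.939), so LPS 1 d replicate 2 was low and the other LPS arrays were above all PBS arrays. That array was also the lowest for Gpr34 and P2ry12 and the highest for the neutrophil list. Without it, the falls of Gpr34, P2ry12 and P2ry13 remained called.

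**Figure D3:**
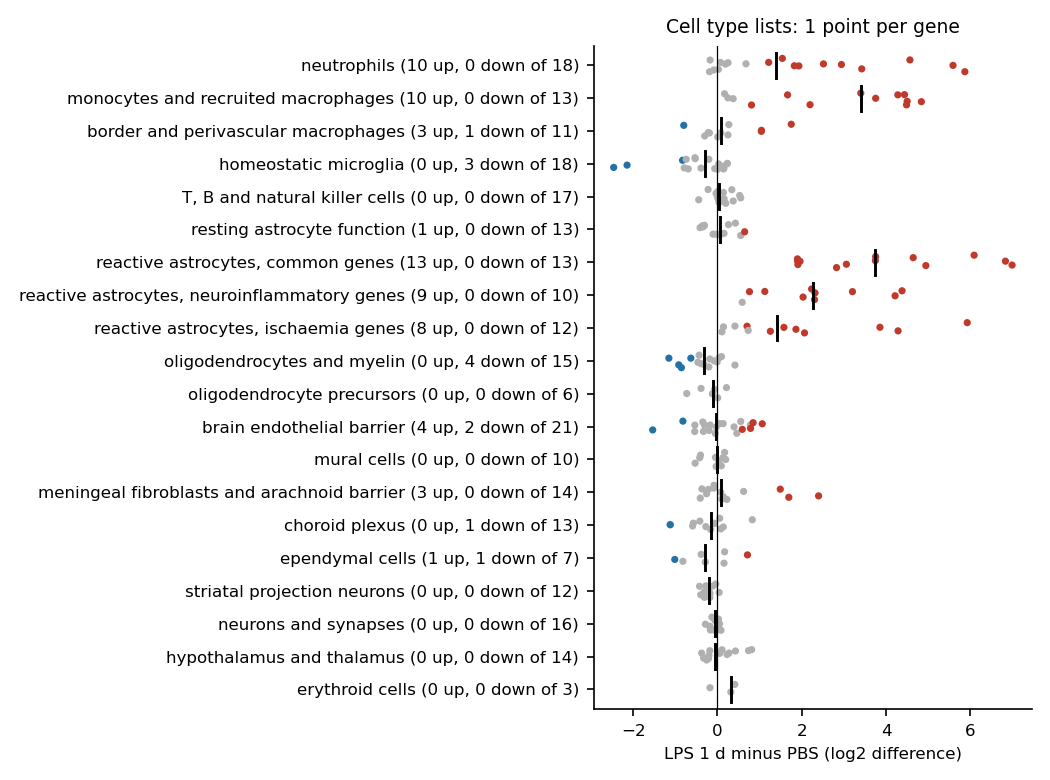
Log2 difference between LPS 1 d and PBS for the genes of each cell type list, 1 point per gene, red where called higher, blue where called lower and grey where not called, with the list median as a black bar. The medians of the neutrophil, monocyte and reactive astrocyte lists lie well to the right of 0. Most falls are in the microglial, myelin and barrier lists, and neuronal lists lie near 0.

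Reactive astrocyte genes rose, while most resting astrocyte markers were not called. All 13 reactive genes described as common to several injuries rose (median 3.75), as did 9 of 10 neuroinflammation-associated genes (median 2.27) and 8 of 12 ischaemia-associated genes (median 1.42). Gfap, the intermediate filament of astrocytes, read 6.09, 5.83 and 6.06 after PBS and 8.72, 8.97 and 8.76 after LPS, a rise of 2.83 ± 0.11 (adjusted p = 3.79e-06) seen on all 3 of its probe sets. Vim, vimentin, rose by 1.96 ± 0.23. Serpina3n, a serine protease inhibitor, went from 5.43, 5.13 and 5.45 to 10.12, 10.50 and 10.25, a rise of 4.95 ± 0.21 (adjusted p = 5.11e-06). Serping1, the C1 inhibitor, rose by 2.30 ± 0.18, Tgm1, a transglutaminase, at least 10.6-fold, and Emp1 by 1.86 ± 0.24. Many of these genes, such as Lcn2, Timp1, Cd44, Cd14 and Ptx3, are also made by myeloid or endothelial cells, and which cells the RNA came from was not tested. Among 13 resting astrocyte genes 1 rose, the water channel Aqp4, from 9.24, 9.20 and 9.17 to 9.78, 9.94 and 9.84 (0.65 ± 0.11, adjusted p = 0.0105). Without LPS 1 d replicate 2 it stood at 0.60 (adjusted p = 0.0515). Aldh1l1 passed the test at 0.55 ± 0.08, under 1.5-fold, as did the potassium channel Kcnj10, picked after its value was seen, at −0.41 ± 0.09 (adjusted p = 0.0415), and the glutamate transporter Slc1a2 read 6.43, 6.19 and 6.43 against 6.25, 6.67 and 6.33.

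Genes of mature oligodendrocytes were lower in part. Of 15 measured, 4 fell and none rose (median −0.32), of which 1 passed a 2-fold threshold and 2 passed ordinary tests. Opalin, a sialylated membrane protein of mature oligodendrocytes, read 7.48, 7.59 and 7.38 in the PBS arrays and 6.43, 6.13 and 6.43 in the LPS 1 d arrays. It fell by 1.15 ± 0.12 on the log2 scale (adjusted p = 0.000463). Its other probe set stood at 0.08 and was not called. Ugt8a, which makes the myelin lipid galactosylceramide, went from 9.29, 9.27 and 9.21 to 8.45, 8.15 and 8.42 and fell by 0.92 ± 0.10 (adjusted p = 0.000784). Aspa, aspartoacylase, fell by 0.85 ± 0.13. Cnp fell by 0.63 ± 0.11, a call lost without LPS 1 d replicate 2 or 3 or PBS replicate 1 (adjusted p 0.0624 to 0.068). Mbp, myelin basic protein, read 12.06, 12.04 and 12.08 against 11.84, 11.86 and 11.93, a difference of −0.18 ± 0.08 (adjusted p = 0.283), with every LPS array below every PBS array. These values are near the top of the scale, and whether that narrowed the difference was not tested. The other Mbp probe set stood at −0.38 and was not called either. Cmtm5, a membrane protein of oligodendrocytes outside the list, was among the 15 largest falls, from 8.13, 8.19 and 8.20 to 7.39, 6.85 and 6.96. None of 6 precursor genes was called. Gpr17, of the stage between precursor and myelinating cell, read 6.78, 6.73 and 6.63 against 6.18, 5.63 and 6.14 (−0.73 ± 0.20, adjusted p = 0.0975).

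No call was made among neuronal genes at 1 d. The 16 neuronal and synaptic genes all lay between −0.28 and 0.09. Snap25, a synaptic vesicle fusion protein, read 11.78, 11.72 and 11.68 after PBS and 11.83, 11.78 and 11.72 after LPS, a difference of 0.05 ± 0.07 (adjusted p = 0.792). None of 12 striatal projection neuron genes was called either (median −0.21). Drd2, the D2 dopamine receptor, read 7.14, 7.50 and 7.20 against 7.12, 6.68 and 6.86 (−0.40 ± 0.15, adjusted p = 0.241). All striatal genes were above background in both groups. None of 14 genes of the hypothalamus and thalamus was called. Tcf7l2, a thalamic transcription factor, read 7.07, 7.17 and 7.21 against 6.76, 6.74 and 6.84 (adjusted p = 0.483), with little spread within each group and no overlap. That test takes its spread from the LPS 4 d arrays too, which read 5.72, 5.83 and 6.74. None of the 4 Tcf7l2 probe sets was called, and the lowest stood at −0.93. Hcrt, the orexin precursor of lateral hypothalamic neurons, spanned 4.13 to 6.93 in the PBS arrays and 5.92 to 6.41 in the LPS 1 d arrays. Hcrt varied more among the PBS pools than it differed between the groups.

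Genes of vessel adhesion molecules rose, and barrier genes moved both ways. Of 16 adhesion and integrin genes 11 rose and none fell (median 1.46), against 3 risen by ordinary tests without moderated variances. Icam1, the ligand by which leukocytes arrest on vessels, read 3.42, 3.50 and 2.78 in the PBS arrays and 7.07, 7.85 and 7.19 in the LPS 1 d arrays, at least 14.7-fold higher (adjusted p = 0.000135). Selp, P-selectin, on which leukocytes roll, rose at least 5.72-fold. Vcam1 went from 4.45, 3.66 and 4.64 to 5.34, 5.47 and 5.59 (1.22 ± 0.23, adjusted p = 0.0191), and lost its call without LPS 1 d replicate 2 (adjusted p = 0.0716) or 3 (adjusted p = 0.0765). On the leukocyte side, the integrin chain Itgb2 rose by 2.13 ± 0.14. Of 21 blood-brain barrier genes 4 rose and 2 fell (median −0.03), and ordinary tests called none of them. Slc22a8, an organic anion transporter of the barrier, read 5.44, 5.64 and 5.66 after PBS and 4.39, 3.83 and 3.92 after LPS and fell by 1.54 ± 0.18 on the log2 scale (adjusted p = 0.000986). Slco1c1, which carries thyroid hormone, fell by 0.82 ± 0.11 (adjusted p = 0.00214), with no overlap between the groups. Cldn5, the main claudin of the barrier's tight junctions, read 7.36, 7.19 and 7.32 against 7.38, 7.40 and 7.50 (0.14 ± 0.12, adjusted p = 0.656). Cdh5, the endothelial cadherin, rose by 0.85 ± 0.10 and the lactate transporter Slc16a1 by 1.06 ± 0.14. The other risen barrier genes, Tie1 and Esam, lost their calls in several leave-outs, so that the count of 4 was 2 without LPS 1 d replicate 3, PBS replicate 1 or PBS replicate 3. Gkn3, known in mouse brain as a marker of arterial endothelium, was among the largest falls, from 4.79, 4.01 and 3.83 to 1.77, 2.69 and 2.32, at least 1.65-fold.

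Mural, meningeal, choroid plexus and ependymal lists held few calls. None of 10 mural genes was called. Of 14 meningeal fibroblast and arachnoid genes 3 rose (median 0.09), among them Dcn, decorin, from 6.86, 6.70 and 6.81 to 8.83, 9.54 and 9.21 (2.40 ± 0.16, adjusted p = 3.25e-05) and Col3a1, a fibrillar collagen, by 1.49 ± 0.20, while Col1a1 was at background. Choroid plexus genes gave 1 fall among 13. Sostdc1 read 5.52, 4.91 and 5.59 against 4.08, 4.56 and 4.02 (adjusted p = 0.0283), a call lost without LPS 1 d replicate 1 or 3 or PBS replicate 1 or 3 (adjusted p 0.0922 to 0.107). Ttr, transthyretin, the defining product of the choroid plexus, read 11.99, 11.52 and 11.81 against 11.70, 12.16 and 11.88. In the PBS group replicate 2 was the lowest for both Ttr and Sostdc1. Of 7 ependymal genes Tmem212 fell by 1.01 ± 0.13 (adjusted p = 0.00181). Rarres2, or chemerin, rose by 0.71 ± 0.15, a call that did not hold without any 1 of the PBS arrays, replicate 3 of LPS 1 d, or replicates 1 or 3 of LPS 4 d (adjusted p 0.0542 to 0.121), and the master regulator of cilia Foxj1 read 4.98, 4.56 and 4.66 against 4.73, 4.75 and 5.18.

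Genes of acute-phase and complement proteins, which the liver makes in bulk, rose in the brain block. Of 18 acute-phase and serpin genes 11 rose and none fell (median 1.86). Hp, haptoglobin, which captures free haemoglobin, read 2.87, 2.74 and 2.20 after PBS and 6.59, 7.47 and 6.54 after LPS, at least 10.4-fold higher. Cp, the ferroxidase ceruloplasmin, rose by 3.75 ± 0.22. Complement genes rose in 11 of 16 cases (median 1.09). C5ar1, the receptor for the chemoattractant C5a, went from 1.48, 2.37 and 2.16 to 5.35, 5.56 and 5.17, at least 3.65-fold above background, and Cfb, a factor of the alternative pathway, at least 4.90-fold. C1qa, made by microglia, rose by 0.81 ± 0.11 (adjusted p = 0.00327), from 8.06, 8.13 and 8.24 to 9.11, 8.71 and 9.05, unlike the microglial receptors that fell.

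**Figure D4:**
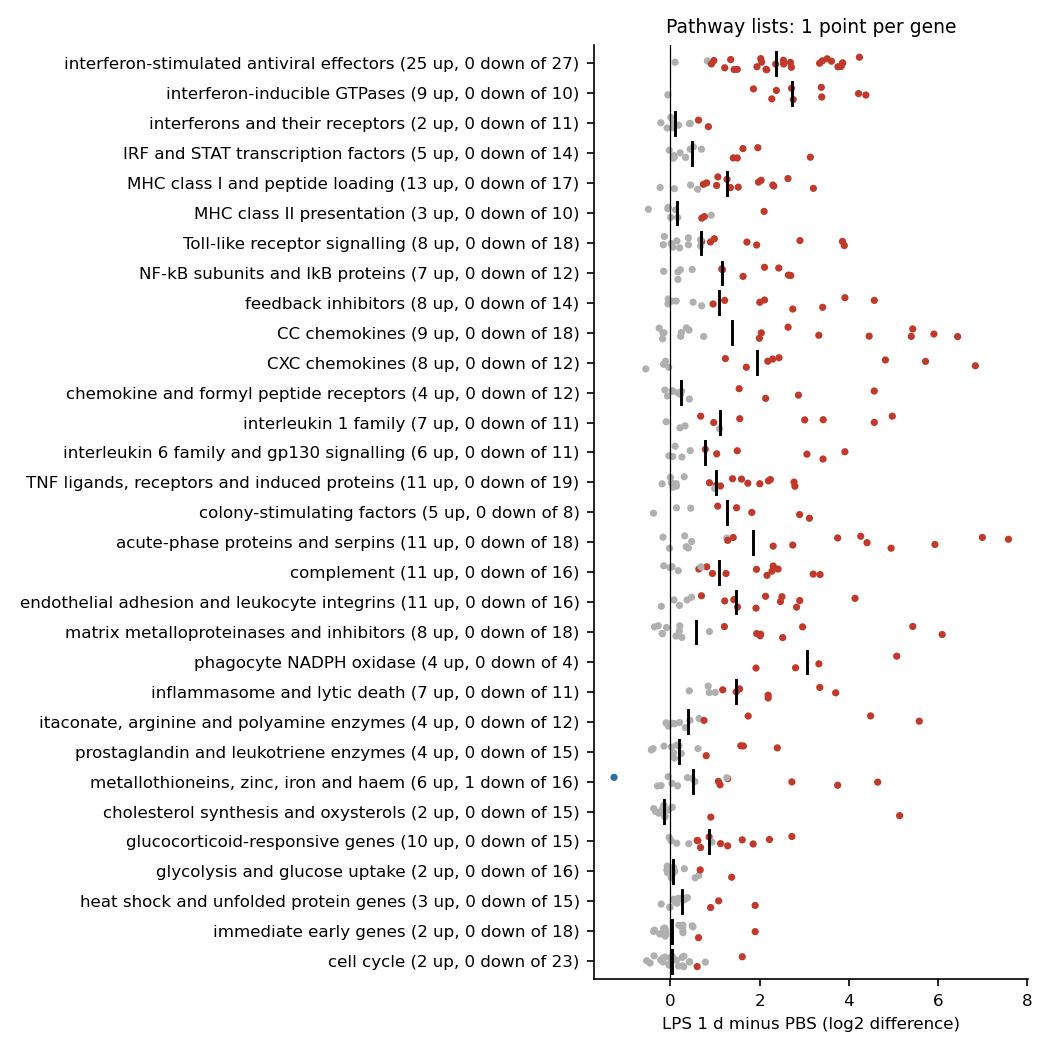
Log2 difference between LPS 1 d and PBS for the genes of each pathway list, 1 point per gene, red where called higher, blue where called lower and grey where not called, with the list median as a black bar. Interferon-stimulated lists and the phagocyte oxidase lie almost wholly to the right, while glycolysis, immediate early and cell cycle genes lie around 0. The median of the cholesterol list is −0.14.

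Genes of phagocyte effector enzymes rose in part. The genes of all 4 measured subunits of the superoxide-generating oxidase of phagocytes rose (median 3.07). Cybb, the membrane subunit, read 2.27, 2.72 and 2.86 in the PBS arrays and 7.63, 7.91 and 7.52 in the LPS 1 d arrays, at least 18.4-fold higher (adjusted p = 6.62e-06). Of the inflammasome and lytic death genes 7 of 11 rose (median 1.48), Casp4, the sensor of intracellular LPS known as caspase 11 in mice, at least 6.16-fold and Nlrp3 at least 2.09-fold. Matrix metalloproteinases and inhibitors rose in 8 of 18 cases (median 0.57), with Mmp12, macrophage elastase, at least 2.45-fold and Timp2 level at 9.84, 9.96 and 9.98 against 9.88, 9.81 and 9.83. Among genes of itaconate and arginine metabolism Acod1 rose, from 3.27, 3.25 and 3.25 to 8.61, 9.25 and 8.65, as did Arg1. Nos2, the inducible nitric oxide synthase, stayed at background at 2.18, 1.90 and 1.97 against 1.97, 1.97 and 1.97. Gch1, which makes the cofactor of that enzyme, rose at least 2.37-fold. Of 15 prostaglandin and leukotriene genes 4 rose (median 0.19), Ptgs2, cyclooxygenase 2, by 1.58 ± 0.15 and Ptges, the prostaglandin E synthase coupled to it, at least 4.46-fold.

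Of the iron, zinc and haem genes, the calls were rises but for 1 iron exporter. Of 16 genes 6 rose and 1 fell (median 0.52). Slc40a1, ferroportin, the only known exporter of iron from cells, read 6.33, 6.34 and 6.22 after PBS and 5.03, 5.06 and 5.01 after LPS and fell by 1.26 ± 0.16 on the log2 scale (adjusted p = 0.00155). Of its 2 probe sets this one was called. Steap4, a metalloreductase, rose at least 12.8-fold, Slc11a1, the phagosomal metal transporter NRAMP1, by 2.72 ± 0.20, and Slc39a14, an importer of zinc and iron, by 1.11 ± 0.13. Hamp, the hormone that removes ferroportin from membranes, also picked after its value was seen, was at background, and Hmox1, haem oxygenase 1, read 2.95, 2.69 and 2.61 against 3.30, 3.22 and 3.37. Mt1, a zinc-binding metallothionein, rose by 1.28 ± 0.08 from 10.83, 10.87 and 10.96 to 12.15, 12.21 and 12.14.

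Sterol genes gave a single large rise. Ch25h, cholesterol 25-hydroxylase, an interferon-induced enzyme whose product is antiviral, read 3.06, 2.88 and 3.14 in the PBS arrays and 7.95, 8.46 and 8.09 in the LPS 1 d arrays, at least 25.5-fold higher (adjusted p = 3.47e-06). Cyp7b1, which converts that product further, rose by 0.91 ± 0.14. No cholesterol synthesis gene was called among the other 13 listed genes, which lay between −0.38 and 0.04. The 3 LPS arrays lay below the 3 PBS arrays for 7 of the 15 genes in the list, against 14% of all genes. The list median was −0.14.

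Of 15 genes responsive to glucocorticoids, the stress hormones of the adrenal, 10 rose (median 0.87), 6 of them at 2-fold or more and 3 by ordinary tests. Fkbp5 rose by 1.12 ± 0.16, Sgk1 by 0.87 ± 0.12 and the lipid droplet protein Plin4 by 2.22 ± 0.25, while Tsc22d3, also a target of the receptor, differed by 0.02 ± 0.13 (adjusted p = 0.974). Angptl4, Cdkn1a and Mt1, also in this list, are induced by other stimuli too. Of 15 heat shock and unfolded protein genes 3 rose (median 0.26), with the small chaperone Hspb1 up by 1.90 ± 0.14 and the inducible Hspa1b at 0.26 ± 0.20 (adjusted p = 0.596). Of 18 immediate early genes 2 rose (median 0.05). Ier3, an NF-kB target, rose by 1.90 ± 0.15 and Junb by 0.63 ± 0.13, a call lost without any 1 of the 9 arrays other than LPS 4 d replicate 2 and PBS replicate 1 (adjusted p 0.0531 to 0.125), whereas the neuronal activity genes Arc and Egr1 stood at −0.36 ± 0.20 and −0.12 ± 0.09. Of 16 glycolysis genes Hk2, hexokinase 2, rose by 1.37 ± 0.18 and Pfkfb3 by 0.67 ± 0.12, the latter lost without LPS 1 d replicate 2 or 3 or PBS replicate 2 or 3 (adjusted p 0.0532 to 0.0755). Of 23 cell cycle genes 2 rose, the cell cycle inhibitor Cdkn1a (p21), by 1.61 ± 0.11, and Ccnd1, by 0.60 ± 0.12, the latter lost without LPS 1 d replicate 2 or 3 or PBS replicate 2 or 3 (adjusted p 0.0638 to 0.0842). Mki67, a marker of dividing cells, read 2.59, 2.23 and 2.90 against 2.85, 2.14 and 2.80, at background in both groups.

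The rest of the 15 largest falls came from several kinds of gene. Serpinb1a, an inhibitor of neutrophil proteases, read 6.34, 6.47 and 6.22 in the PBS arrays and 4.59, 5.12 and 5.36 in the LPS 1 d arrays and fell by 1.32 ± 0.18 on the log2 scale (adjusted p = 0.00272). Rpe65, the retinoid isomerase known from the eye, went from 3.74, 3.90 and 3.61, just above background, to 2.34, 2.22 and 2.10, at least 1.20-fold (adjusted p = 0.000344). Rdh5, a retinol dehydrogenase, fell by 1.20 ± 0.21 from 4.93, 4.53 and 5.33 to 3.70, 3.91 and 3.59, a call lost without LPS 1 d replicate 3 (adjusted p = 0.0611) or PBS replicate 1 (adjusted p = 0.0536). Sox2ot, a long noncoding RNA that spans Sox2, read 7.22, 7.09 and 7.32 against 6.28, 6.03 and 6.14. The transcript 1700047M11Rik fell by 1.21 ± 0.11 and Wfdc18, a WAP domain protein, by 1.05 ± 0.21. The transcript A230001M10Rik reached background after LPS and was at least 1.77-fold lower. The calls of A230001M10Rik (adjusted p 0.0559 to 0.0744) and Wfdc18 (adjusted p 0.0502 to 0.0951) were lost without any 1 of the PBS arrays.

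Set against the LPS arrays of 4 d, the 1 d state differed in both directions. Of the 17097 genes 315 (1.84%) were higher and 234 (1.37%) lower at 4 d than at 1 d after LPS by the same test. This comparison shares the LPS 1 d arrays with the one above, so a gene raised by chance at 1 d would appear lower at 4 d, and the values are given side by side only. Lower at 4 d were 19 of 27 antiviral effectors, 9 of 10 GTPases, 6 of 18 neutrophil genes, 5 of 13 monocyte genes and 7 of 13 common reactive astrocyte genes. Higher at 4 d were 10 of 18 homeostatic microglial genes, 4 of 15 myelin genes, 8 of 21 barrier genes, 6 of 10 class II genes and 9 of 23 cell cycle genes. Il6 read 1.63, 1.96 and 1.57 at 4 d, below background as after PBS and unlike at 1 d. Cxcl10 read 5.54, 4.92 and 5.94, between its PBS and 1 d values. P2ry12 read 6.76, 7.01 and 6.28 and was higher than at 1 d by 1.68 (adjusted p = 0.00815), with replicate 2 inside the range of the PBS arrays. Ms4a7, a border macrophage gene barely raised at 1 d from 2.80, 2.77 and 2.91 to 4.05, 3.47 and 4.09, reached 8.46, 7.84 and 8.38 at 4 d. Its call at 1 d was lost without LPS 1 d replicate 1 or 3 or any 1 of the PBS arrays (adjusted p 0.0605 to 0.0822). Mki67, at background at 1 d, read 5.28, 4.40 and 5.41 at 4 d (adjusted p = 0.00304). Ccl5 stayed near its 1 d level, at 8.65, 8.57 and 9.22 (adjusted p = 0.876).

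**Figure D5:**
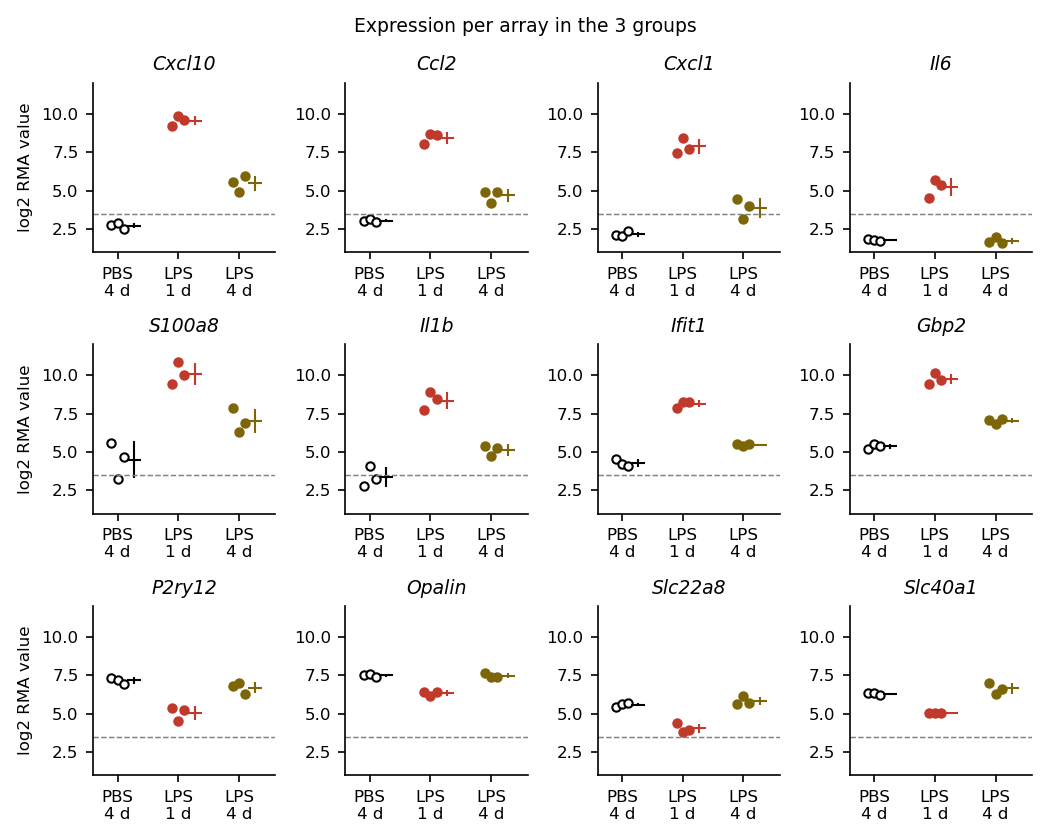
Log2 RMA values of 12 genes in the PBS 4 d (open circles), LPS 1 d (red) and LPS 4 d (brown) arrays, 1 point per array with the mean and SD of 3 arrays beside them and the background level of 3.49 dashed. Cytokine and interferon genes peak at LPS 1 d, and P2ry12, Opalin, Slc22a8 and Slc40a1 are lowest there.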

How the data were processed

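Total RNA of brain blocks, pooled from 3 mice per array, was labelled with the IVT Express kit and hybridised to Affymetrix mouse perfect-match arrays. The authors normalised the arrays by RMA in Affymetrix Expression Console, per the labels, and deposited log2 values. No source used here gives the version of that tool. RMA subtracts background, forces the arrays to 1 distribution and compresses differences at low and very high signal. Control probe sets (104) were left out. Gene symbols came from the platform annotation: 28898 probe sets had 1 symbol, 551 several and 15588 none. A gene was represented by its probe set of highest mean over the 9 arrays, named by 1 symbol alone, and listed genes without one were not analysed here. That mean includes the LPS arrays, so the choice can favour a probe set that rose.

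Group means were estimated in limma 3.58.1 (R 4.3.3) from the 9 arrays together, with 6 residual degrees of freedom and 3.02 from the prior. Benjamini-Hochberg adjustment ran over all 45037 probe sets, and a call needed an adjusted p below 0.05 together with a 1.5-fold change or more, the thresholds of the study. Errors are SEs of the log2 difference. Where 1 group's mean was at or below background, "at least" folds put 3.49 in place of lower values. Named genes are the 15 largest rises and falls among called genes whose arrays did not overlap between the groups. Also named are key members of each list and up to 4 called members a list in each direction. The members of the 51 lists, and the lists, were chosen with earlier results of these data known. On simulated data, 200 probe sets were altered at each fold. The fit recovered 41.5% of true changes of 1.5-fold, 84.5% of those of 2-fold and 99% of those of 4-fold. It made 17 false calls among 45037 probe sets. Whether these values hold for the measured arrays, or for genes at background, was not tested. Arrays are replicates as the labels number them, and no source says that the pools were handled apart, so p-values measure the spread between these pools, whose number limits the precision. Pools with the same replicate number did not deviate together between LPS 1 d and PBS (correlations −0.0231, −0.0177 and 0.0251), so no pairing was used. Alternatives tried were other variance models, samples, filters, scalings, fold thresholds and probe sets, a replicate block and leaving out each array. The ordinary tests without moderation used only the 6 LPS 1 d and PBS arrays.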

Additional observations from a re-analysis of the deposited data

How the results depend on the processing

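No named gene with a call changed direction under any alternative run. Ordinary tests without moderation called 439 probe sets and 286 genes higher and 34 probe sets and 13 genes lower, against 1064, 660, 198 and 91. These tests lack the 3.02 degrees of freedom of the prior and also leave out the LPS 4 d arrays. Limma on the same 6 arrays called 1009 probe sets and 631 genes higher and 149 and 71 lower. A threshold of 2-fold left 32 probe sets and 20 genes lower, and no fold threshold gave 443 and 194. Leaving out 1 array gave 875 to 1056 probe sets and 546 to 658 genes higher, and 143 to 195 probe sets and 68 to 88 genes lower. With the replicate number as a block, 1006 probe sets and 633 genes were higher and 162 and 75 lower. Of 48 list counts, 33 moved by over 1.5 times under ordinary tests and 14 at 2-fold. By ordinary tests, antiviral effectors went from 25 to 16, class I genes from 13 to 6, TNF genes from 11 to 4, complement from 11 to 6 and neutrophil genes from 10 to 1. The microglial falls went from 3 to 0 and the myelin falls from 4 to 2, and at 2-fold the latter went to 1. With low values filtered out 6 of the 10 neutrophil genes passed, and class II genes fell from 3 to 1 without LPS 1 d replicate 2 or 3 or PBS replicate 1. Barrier genes called higher fell from 4 to 2 without LPS 1 d replicate 3 or PBS replicate 1 or 3. Of 172 named genes with a call, 84 lost it under ordinary tests and 27 at 2-fold. Without at least 1 array 23 lost it, mostly small changes. Genes near or below background, as most PBS values of cytokines were, allow only lower bounds, and the absence of a PBS group at 1 d affects every value.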
